A study of Mus musculus with 6 samples.

Results

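The Polycomb complex genes described here are 10 genes of mouse RW4 embryonic stem cells: Ezh1, Ezh2, Eed, Suz12, Jarid2 and Mtf2, which encode subunits of Polycomb repressive complex 2 (PRC2), and Rnf2, Ring1, Cbx7 and Pcgf6, which encode subunits of Polycomb repressive complex 1 (PRC1). They were taken by the gene symbol of the array's annotation, with the brightest probe set per gene over the 6 arrays, and all 10 were among the 19938 genes measured. RNA was measured on single-colour Affymetrix arrays in 3 groups of 2: untreated cells, labelled WT for the induction system; cells given 1 µM 4-hydroxytamoxifen (4OHT), labelled ERT2; and cells given 1 µM Shld1, labelled FKBP. 4OHT is an estrogen receptor ligand used to switch on proteins fused to a mutated receptor domain (ERT2), and Shld1 protects proteins that carry an unstable FKBP domain from being degraded; no source used here states whether the cells carried such a fusion or how long they were treated. All groups were kept in serum and leukemia inhibitory factor on gelatin, and the labels call the arrays of a group duplicates without saying whether these were separate cultures, so the spread between them may be technical. The series title states the question as the effect of 4OHT and of Shld1 on these cells.

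Polycomb complexes keep developmental genes silent. PRC2 methylates lysine 27 of histone H3 (H3K27) through its catalytic subunit, either Ezh2 or its relative Ezh1, which works only in complex with Eed and Suz12. PRC1 attaches ubiquitin to histone H2A through Rnf2 (also called Ring1b) or Ring1, and its other subunits decide where it binds: Cbx proteins such as Cbx7 read the methyl mark, while variant complexes built on Pcgf proteins such as Pcgf6 are recruited without it. In embryonic stem cells both complexes sit on CpG-rich promoters of developmental regulators that are off but can be switched on during differentiation.

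The arrays carried the markers of the labelled cell type, and 2 of them stood apart from the rest. All 8 stem cell markers (Pou5f1, Sox2, Nanog, Klf4, Zfp42, Esrrb, Dppa5a and Tdgf1) were above the background level in each group, with list means of 9.97 to 10.17 per array; the background level is the 95th percentile of 1015 olfactory receptor genes, a log2 signal of 3.73. Means of the fibroblast, endoderm and neural marker lists ran from 3.73 to 3.96, 4.69 to 4.89 and 4.71 to 4.85. These lists were dimmer but not all below background. In each group 4 to 5 of 8 fibroblast, 6 of 8 endoderm and 4 of 7 neural markers were above it. In untreated cells the neural marker Tubb3 was at 8.52 and the endoderm marker Dab2 at 7.05, beside 7.21 for Klf4. The arrays that stood apart were 4OHT replicate 1 and Shld1 replicate 2, whose signals covered a narrower range (SDs of 2.29 and 2.24 over all probe sets, against 2.33 to 2.35 on the others). Among the 7104 genes whose untreated signal lay between those of the dimmest and the brightest member, 77.5% were below the untreated mean on 4OHT replicate 1 and 75.9% on Shld1 replicate 2, against 54.5% on 4OHT replicate 2 and 45.4% on Shld1 replicate 1. Member values are therefore also given after cyclic loess normalization, which reduces such shifts that depend on signal.

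At their first-listed starts the members all had more CG dinucleotides upstream than the median promoter, a property that their choice did not use. Promoters of genes with a like signal were not compared. RefSeq start sites (GRCm38.p6) matched all 10 genes, with 12 windows of 250 bases upstream because Jarid2 and Mtf2 have a second start in the table. The median count of CG was 22.5 over the 12 windows and 6 over all 32851 windows of the table. Suz12 had the most, 37, a count reached by 2.2% of all windows, and Eed the fewest among first-listed starts, 12, reached by 33.5%. Ezh1 and Pcgf6 had 14 each, reached by 29.4%, and the second start of Mtf2 had 2, reached by 81.2%. The GC box GGGCGG (either strand, overlapping CG) occurred in 8 of the 12 windows (7 members), against 32.7% of all windows. CCAAT (either strand) occurred in 5 of the 12 windows (5 members), against 33.8%. Ezh1 and Ring1 are shown because their signal on each treated array lay below both untreated arrays, and Suz12 because its groups overlapped in the deposited values; each window is written 5′ to 3′ with CG in capitals.
Ezh1, chr11:101226464-101226713, minus strand: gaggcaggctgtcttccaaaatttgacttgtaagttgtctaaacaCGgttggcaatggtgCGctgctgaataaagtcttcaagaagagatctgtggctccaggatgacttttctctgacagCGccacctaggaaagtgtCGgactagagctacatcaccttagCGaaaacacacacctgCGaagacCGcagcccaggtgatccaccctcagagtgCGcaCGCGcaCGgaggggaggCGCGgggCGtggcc
Ring1, chr17:34024681-34024930, minus strand: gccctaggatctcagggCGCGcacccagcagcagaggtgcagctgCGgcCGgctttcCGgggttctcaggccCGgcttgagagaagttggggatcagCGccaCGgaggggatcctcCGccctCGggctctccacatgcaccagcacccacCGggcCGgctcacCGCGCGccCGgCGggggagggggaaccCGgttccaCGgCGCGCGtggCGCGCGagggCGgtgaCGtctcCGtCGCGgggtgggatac
Suz12, chr11:79992856-79993105, plus strand: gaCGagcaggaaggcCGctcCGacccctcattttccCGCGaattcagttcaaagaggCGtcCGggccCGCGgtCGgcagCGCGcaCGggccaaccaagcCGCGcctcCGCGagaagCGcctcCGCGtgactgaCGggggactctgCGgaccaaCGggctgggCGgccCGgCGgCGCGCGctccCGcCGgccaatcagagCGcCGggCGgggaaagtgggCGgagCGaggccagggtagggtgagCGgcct
The windows of Ezh1 and Ring1 hold 14 and 30 CG, so their counts lie apart; a match in a sequence is a description only.

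All 10 members were above background on every array, and no member passed the test in any comparison. Differences are log2 values, so that 1 is 2-fold, with the standard error (SE), the 95% interval and the adjusted p of a limma fit over all 19938 genes. The bulk RNA cannot tell a change in all cells from a change in the share of cells expressing a gene. With 4OHT, 0 of 10 members had an adjusted p under 0.05 (0% of all genes did) and 0 had an unadjusted p under 0.05 (4.99% of all genes). With Shld1 the counts were also 0 (0% of all genes) and 0 (4.34%), and in 4OHT against Shld1 0 (0%) and 0 (5.6%). All 10 intervals lay within 2-fold in each comparison, as did those of 98.8%, 98.7% and 98.5% of all genes.

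**Figure D1:**
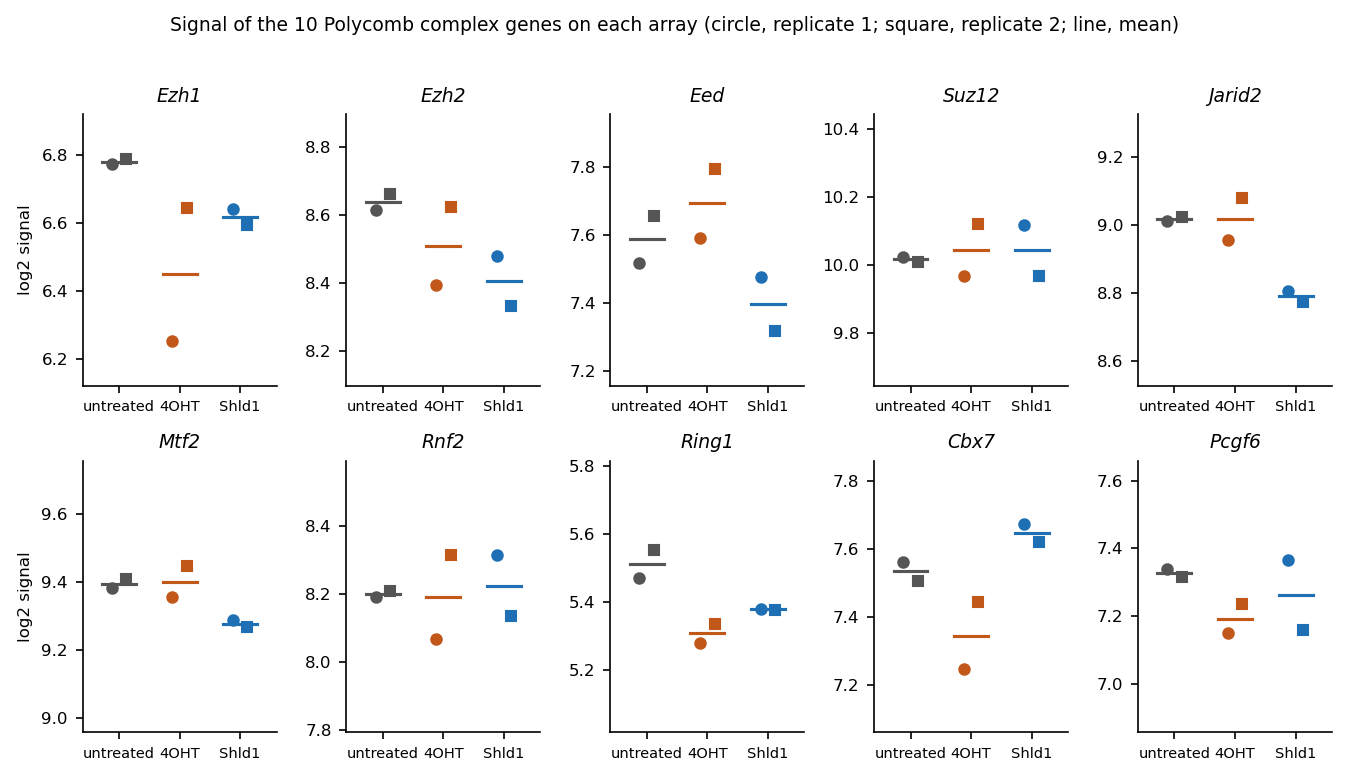
Log2 signal (vertical axis, the same span in each panel) of the 10 Polycomb complex genes on the untreated, 4OHT and Shld1 arrays; circles are replicate 1, squares replicate 2 and lines group means. Ezh1 and Ring1 have their untreated arrays on top. Eed, Jarid2 and Mtf2 have the Shld1 arrays below the rest, and for Suz12 and Rnf2 the deposited values of the 3 groups overlap.

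Of the catalytic subunits of PRC2, Ezh1 had the largest difference from untreated of any member. Its signal (probe set 10391378) was 6.77 and 6.79 on the untreated arrays, 6.25 and 6.65 with 4OHT, and 6.64 and 6.60 with Shld1. All 4 treated arrays lay below both untreated arrays, which serve in both comparisons. Of all genes 6.91% were placed this way, and the share among genes in the members' signal range was not computed. The difference with 4OHT was -0.33 (SE 0.16, 95% interval -0.69 to 0.03; limma, adjusted p = 0.96), and most of it came from replicate 1. Replicate 1 was lower than the untreated mean by 0.53 and replicate 2 by 0.14, and without replicate 1 the difference was -0.14. With Shld1 it was -0.16 (SE 0.16, -0.52 to 0.20; adjusted p = 0.999).

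Ezh2, the main H3K27 methyltransferase of dividing cells, was at 8.61 and 8.66 without treatment, 8.39 and 8.63 with 4OHT, and 8.48 and 8.33 with Shld1 (probe set 10544501). The Shld1 arrays lay below both untreated arrays, while 4OHT replicate 2 lay between them. The differences were -0.23 (SE 0.15, -0.57 to 0.10; limma, adjusted p = 0.999) with Shld1 and -0.13 (SE 0.15, -0.46 to 0.21; adjusted p = 0.969) with 4OHT. Without Shld1 replicate 2 the Shld1 difference was -0.16, against -0.18 after cyclic loess normalization of all arrays.

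The other core subunits, Eed and Suz12, differed in how their arrays were placed. Eed binds the methylated histone and so stimulates the enzyme; its signal was 7.52 and 7.66 in untreated cells, 7.59 and 7.80 with 4OHT, and 7.48 and 7.32 with Shld1. The 4OHT arrays overlapped the untreated ones and the Shld1 arrays lay below them, with differences of 0.11 (SE 0.15, -0.23 to 0.44) and -0.19 (SE 0.15, -0.53 to 0.15). After cyclic loess normalization both 4OHT arrays of Eed, at 7.68 and 7.77, lay above the untreated arrays at 7.49 and 7.61, and the 4OHT difference was 0.18 (SE 0.12). A dimmer Eed probe set (10554837) stayed near background, at 3.49 to 3.95 on the 6 arrays, and was not used. Suz12, which holds the complex together, had the narrowest range of the members in the deposited values (0.16; after cyclic loess normalization Pcgf6 had the narrowest, 0.10, against 0.14 for Suz12). It was at 10.03 and 10.01 untreated, 9.97 and 10.12 with 4OHT, and 10.12 and 9.97 with Shld1. Both treated groups enclosed the untreated arrays, with differences of 0.03 (SE 0.14, -0.29 to 0.35) and 0.03 (SE 0.14, -0.30 to 0.35).

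Jarid2 and Mtf2 help PRC2 to bind chromatin, and each had its Shld1 arrays below all other arrays, as did Eed. Jarid2, a DNA-binding cofactor, was at 9.01 and 9.02 in untreated cells, 8.96 and 9.08 with 4OHT, and 8.81 and 8.77 with Shld1. Its difference with Shld1 was -0.23 (SE 0.14, -0.54 to 0.08; limma, adjusted p = 0.999), and without Shld1 replicate 2, the array of narrowest range, it was -0.21. With 4OHT its difference was 0.00 (SE 0.14, -0.31 to 0.31). Mtf2, a Polycomb-like protein that binds unmethylated CpG-rich DNA, was at 9.38 and 9.41 untreated, 9.36 and 9.45 with 4OHT, and 9.29 and 9.27 with Shld1. The same placing gave a smaller difference with Shld1, -0.12 (SE 0.14, -0.42 to 0.19), and 0.006 (SE 0.14, -0.30 to 0.31) with 4OHT. After cyclic loess normalization the Shld1 arrays of Mtf2 were at 9.255 and 9.342, and its untreated arrays at 9.365 and 9.368. Across the 6 arrays the signals of Jarid2 and Mtf2 had a Pearson's r of 0.989, the highest of the 45 pairs of members, which share their arrays and the narrower range of 2 of them.

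Among the ubiquitin ligases of PRC1, the arrays of Rnf2 as deposited overlapped in every comparison and those of Ring1 did not in any. Rnf2, the main ligase of embryonic stem cells, was at 8.19 and 8.21 in untreated cells, 8.07 and 8.32 with 4OHT, and 8.32 and 8.13 with Shld1. Its differences were -0.01 (SE 0.15, -0.35 to 0.33) with 4OHT and 0.02 (SE 0.15, -0.32 to 0.36) with Shld1. After cyclic loess normalization both Shld1 arrays of Rnf2, at 8.27 and 8.22, lay above the untreated arrays at 8.17 and 8.16. Ring1, its relative, was at 5.47 and 5.55 untreated, 5.28 and 5.34 with 4OHT, and 5.38 and 5.38 with Shld1. All 4 treated arrays of Ring1 lay below both untreated arrays (6.91% of all genes), as for Ezh1 and again against the same 2 controls. The differences were -0.20 (SE 0.14, -0.51 to 0.10; limma, adjusted p = 0.961) and -0.13 (SE 0.14, -0.44 to 0.17; adjusted p = 0.999). For Ring1 4OHT replicate 2, an array of the usual range, was lower than the untreated mean by 0.18.

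Cbx7 and Pcgf6 belong to different forms of PRC1. Cbx7, the main reader of methylated H3K27 in stem cell PRC1, was at 7.56 and 7.51 in untreated cells, 7.25 and 7.45 with 4OHT, and 7.68 and 7.62 with Shld1. In the deposited values both 4OHT arrays lay below and both Shld1 arrays above the untreated pair, a placing on opposite sides that Eed, Jarid2 and Mtf2 also had, the other way round, after cyclic loess normalization. The differences were -0.19 (SE 0.14, -0.51 to 0.13; limma, adjusted p = 0.961) and 0.11 (SE 0.14, -0.21 to 0.43; adjusted p = 0.999). Pcgf6, of a variant PRC1 that also silences germ line genes in stem cells, was at 7.34 and 7.32 untreated, 7.15 and 7.24 with 4OHT, and 7.37 and 7.16 with Shld1. The 4OHT arrays lay below the untreated pair, with a difference of -0.13 (SE 0.14, -0.46 to 0.19), and the Shld1 arrays enclosed it (-0.07, SE 0.14, -0.39 to 0.26).

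**Figure D2:**
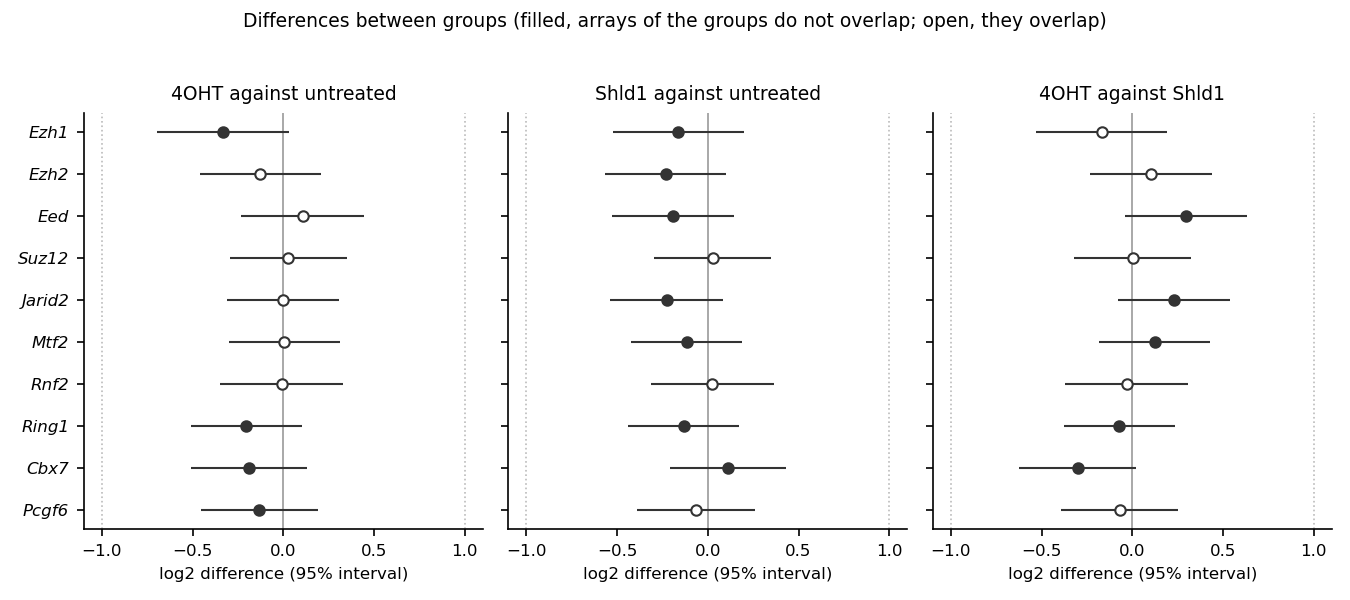
Log2 difference (horizontal axis) with its 95% interval for each Polycomb complex gene in the 3 comparisons; filled points mark genes whose arrays do not overlap between the groups, and dotted lines mark 2-fold. Every interval includes 0, and the points run from -0.33 for Ezh1 with 4OHT to 0.30 for Eed in 4OHT against Shld1.

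Counted over the members, placing the arrays without overlap was not rare, and it was not rare among all genes. In 4OHT against untreated the arrays of 4 members did not overlap (37.7% of all genes) and in Shld1 against untreated those of 7 (32.5%). With 4OHT the arrays of 4 members (Ezh1, Ring1, Cbx7 and Pcgf6) lay below both untreated arrays, against 20.4% of all genes and 32.6% of the genes in the members' signal range. For 0 members did they lie above (17.3% of all genes). With Shld1 they lay below for 6 members (Ezh1, Ezh2, Eed, Jarid2, Mtf2 and Ring1), against 17.3% of all genes and 25.2% in the signal range, and above for Cbx7 (15.2% of all genes). The median difference of the members was -0.07 with 4OHT and -0.13 with Shld1, where the median of all genes was -0.009 and -0.004. The share of the narrower arrays in these counts was not tested, but their size can be seen array by array. The median member was lower than the untreated mean by 0.15 on 4OHT replicate 1 and by 0.15 on Shld1 replicate 2, where genes of the same signal range were lower by 0.14 and 0.12. It was 0.02 on 4OHT replicate 2 and -0.11 on Shld1 replicate 1, with -0.02 and 0.02 for genes of that range.

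After cyclic loess normalization the placing of the arrays changed for some members. The count below both untreated arrays was 4 with 4OHT (19.9% of all genes) and 6 with Shld1 (17.6%), and the count above them was 3 (17.8%) and 3 (17%). The members above them were Eed, Jarid2 and Mtf2 with 4OHT, and Suz12, Rnf2 and Cbx7 with Shld1. All 4 treated arrays stayed below the untreated mean for Ezh1, Ezh2 and Ring1. For Ezh1 the 4 array differences were then -0.42, -0.13, -0.16 and -0.08. The 4OHT difference of Rnf2 turned from -0.01 to 0.06 and that of Jarid2 went from 0.00 to 0.05.

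**Figure D3:**
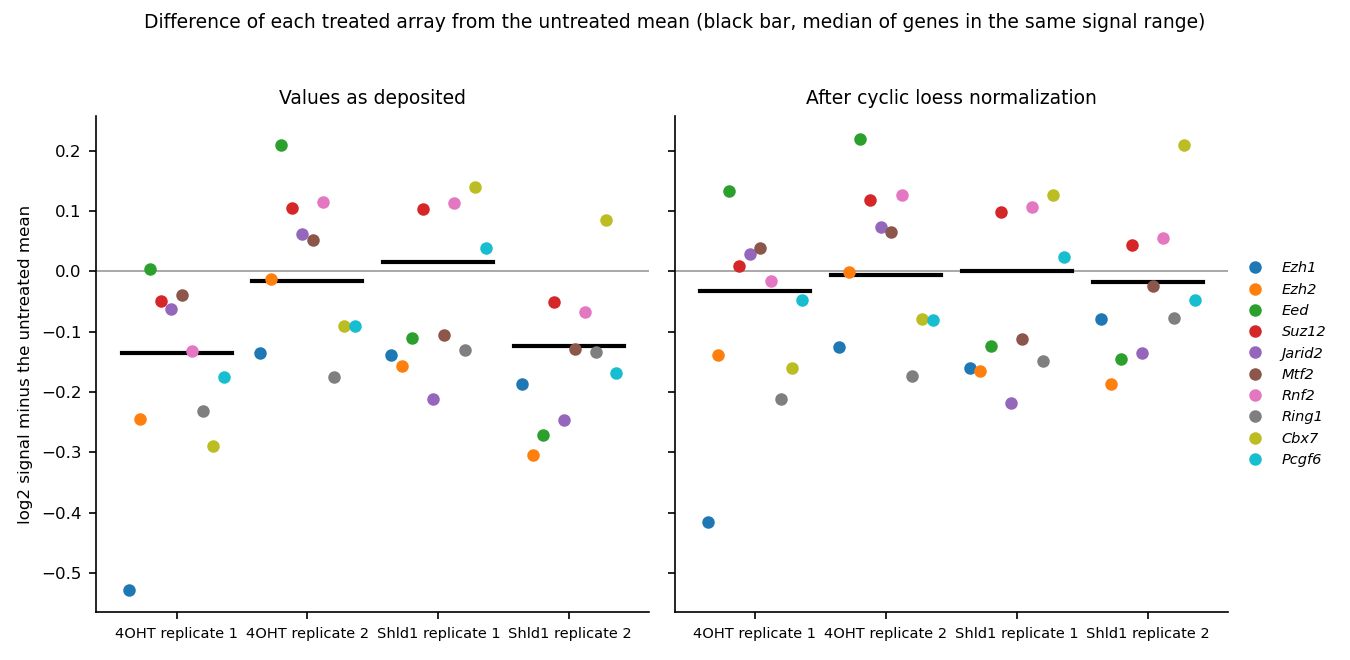
Log2 signal of each treated array minus the untreated mean (vertical axis), one coloured point per Polycomb complex gene, for the values as deposited and after cyclic loess normalization; black bars are medians of the 7104 genes in the members' signal range. As deposited, 9 of 10 members are below 0 on 4OHT replicate 1 (77.5% of those genes) and 9 on Shld1 replicate 2 (75.9%). After normalization these counts are 6 (57.5%) and 7 (53.7%).

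Compared directly, both at 1 µM, the agents gave arrays without overlap for 5 members (30.5% of all genes). Cbx7 was lower with 4OHT on both arrays, a difference of 4OHT minus Shld1 of -0.30 (SE 0.14, 95% interval -0.62 to 0.02; limma, adjusted p = 0.894). Eed differed the other way, by 0.30 (SE 0.15, -0.04 to 0.63; adjusted p = 0.894), as did Jarid2, by 0.23 (SE 0.14, -0.08 to 0.54), and Mtf2, by 0.12 (SE 0.14, -0.18 to 0.43). Ring1 differed by -0.07 (SE 0.14, -0.38 to 0.23). These 5 intervals include 0, which does not show that the agents act alike. The intervals of Cbx7 and Eed reach past 1.5-fold. Those of the other 8 members lie within it, as do 71.6% of all genes. Without both arrays of narrower range the differences of Cbx7, Eed, Jarid2 and Mtf2 were -0.23, 0.32, 0.27 and 0.16. The other 5 members overlapped, from -0.17 (SE 0.16) for Ezh1 to 0.10 (SE 0.15) for Ezh2.

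The replicate spread of the members was smallest in untreated cells. The gap between the 2 arrays of a group had a median over members of 0.0245 for the untreated pair, 0.177 for 4OHT and 0.102 for Shld1. Over all genes these medians were 0.124, 0.166 and 0.195, and over genes in the members' signal range 0.0918, 0.153 and 0.164. The largest gaps among the members were those of Eed in untreated cells (0.141), Ezh1 with 4OHT (0.392) and Pcgf6 with Shld1 (0.206). With 4OHT, replicate 1 was the lower array for all 10 members, and with Shld1 replicate 2 was the lower for all 10. The share of all genes placed this way was not computed. On these 2 arrays 77.5% and 75.9% of genes in the members' signal range lay below the untreated mean. Of the 45 pairs of members, 40 had a positive Pearson's r over the 6 arrays, with a median of 0.45; the lowest was -0.53, between Eed and Cbx7.

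The other PRC2 subunits gave no call in any comparison. All 7 listed genes were measured, and 6 were above background on average. With 4OHT 2 were higher and 5 lower than untreated (52.2% of all genes were lower), with a median difference of -0.12. An unadjusted p under 0.05 was found for 0 (4.99% of all genes). Epop, a subunit that links PRC2 to elongin, was at 6.79 and 6.80 in untreated cells, 7.19 and 7.03 with 4OHT, and 7.11 and 6.79 with Shld1. Its difference with 4OHT was 0.32 (SE 0.16; limma, adjusted p = 0.96). Aebp2, a zinc finger cofactor, differed by -0.19 (SE 0.15) and the histone-binding Rbbp4 by -0.17 (SE 0.16). With Shld1 2 were higher and 5 lower (51.1% of all genes were lower), with a median of -0.04. The largest statistic was that of Phf19 at 0.17 (SE 0.14), a Polycomb-like protein that was below background in untreated cells at 3.65. Epop differed by 0.16 (SE 0.16) and Rbbp7 by -0.13 (SE 0.15). Between the agents Phf19 differed by -0.29 (SE 0.14), Epop by 0.16 and Aebp2 by -0.13.

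The other PRC1 subunits were likewise without a call. Of 31 listed genes 29 were analysed here, and 28 were above background. With 4OHT 11 were higher and 18 lower, with a median of -0.02, and with Shld1 12 and 17, with a median of -0.03. Of all genes, 52.2% and 51.1% were lower. An unadjusted p under 0.05 was found for 0 in either (4.99% and 4.34% of all genes). The largest statistics with 4OHT were those of Auts2, a subunit of a PRC1 form tied to gene activation, at -0.27 (SE 0.14), Yaf2 at 0.26 (SE 0.16) and Scml2 at -0.21 (SE 0.20), the last below background. With Shld1 they were Pcgf5 at 0.35 (SE 0.17), L3mbtl2 at -0.31 (SE 0.16) and Auts2 at -0.26 (SE 0.14).

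Pcgf5 was the 1 gene of these lists with an unadjusted p under 0.05 between the agents (5.6% of all genes). Pcgf5, which like Pcgf6 builds a variant PRC1, was at 4.78 and 4.93 in untreated cells, 4.46 and 4.91 with 4OHT, and 5.22 and 5.18 with Shld1. Both 4OHT arrays lay below both Shld1 arrays, and the difference was -0.52 (SE 0.17, 95% interval -0.91 to -0.13; limma, adjusted p = 0.871, unadjusted p = 0.0144). Fbrs followed with -0.28 (SE 0.15) and Bmi1, which like Pcgf2 serves as the Pcgf subunit of canonical PRC1, with 0.39 (SE 0.22). Bmi1 rested on 1 array, being at 4.82 on Shld1 replicate 2 and between 5.33 and 5.71 on the other 5 arrays.

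The subunits closest to Cbx7 and Pcgf6 in family did not share a direction. Cbx2 differed by -0.02 (SE 0.15) with 4OHT and -0.06 (SE 0.15) with Shld1, and Cbx8 by -0.18 (SE 0.19) and 0.04 (SE 0.19). Pcgf1 differed by -0.02 (SE 0.23) with 4OHT and 0.37 (SE 0.23) with Shld1, Pcgf2 by 0.05 and 0.08 (SE 0.15 each) and Pcgf3 by -0.14 and -0.16 (SE 0.18 each).

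Enzymes that undo the Polycomb marks were also without a call. Of 11 listed genes for the H3K27 demethylases and the H2A deubiquitinase complex, 10 were measured and 8 were above background. With either agent 4 were higher and 6 lower (52.2% of all genes were lower with 4OHT and 51.1% with Shld1), with medians of -0.02 and -0.06. With 4OHT Foxk1 differed by -0.22 (SE 0.15), Asxl1, a partner of the deubiquitinase Bap1, by -0.23 (SE 0.16) and Asxl3 by 0.16 (SE 0.15). With Shld1 the demethylase Kdm6a differed by -0.13 (SE 0.15), Foxk1 by -0.18 (SE 0.15) and Uty, below background, by 0.26 (SE 0.22). Between the agents Kdm6a differed by 0.19 (SE 0.15), Asxl1 by -0.15 (SE 0.16) and Uty by -0.30 (SE 0.22).

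Of 34 developmental regulators that Polycomb is known to silence in stem cells, 30 were measured and 18 were above background in each group. With 4OHT 20 were higher and 10 lower, with a median of 0.09, and with Shld1 22 and 8, with a median of 0.12. Of all genes, 52.2% were lower with 4OHT and 51.1% with Shld1, with medians of -0.009 and -0.004. The shares among genes of like signal were not computed. In either comparison 0 targets passed. An unadjusted p under 0.05 was found for 1 with 4OHT (4.99% of all genes) and 2 with Shld1 (4.34%). The list mean was 4.06 and 4.04 in untreated cells, 4.23 and 4.06 with 4OHT, and 4.07 and 4.28 with Shld1. It was thus highest on the 2 arrays of narrower range, 4OHT replicate 1 and Shld1 replicate 2. Without 4OHT replicate 1 the median difference with 4OHT was -0.01, and without Shld1 replicate 2 that with Shld1 was 0.04. With all arrays kept, the 4OHT median was 0.075 after cyclic loess, 0.07 after quantile normalization and 0.137 after centring arrays on their 75th percentile. The part of the narrower arrays in these medians was not tested. The median olfactory receptor signal, a view of background, was also highest on 4OHT replicate 1 and Shld1 replicate 2. It was 2.40 and 2.57 there, against 2.31 to 2.39 on the others.

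No single target passed the test. With 4OHT the largest statistics were those of Neurog2 (0.45, SE 0.18; limma, adjusted p = 0.96), Zic1 (0.31, SE 0.15) and Hoxb1 (0.35, SE 0.21), the first 2 below background in both groups. With Shld1 they were Eomes, a T-box factor of mesendoderm and trophoblast, at -0.39 (SE 0.15; adjusted p = 0.999), Hoxc6 at 0.42 (SE 0.19, below background) and Foxa2, a factor of endoderm, at 0.61 (SE 0.30). Eomes was at 4.46 and 4.76 in untreated cells, 4.55 and 4.55 with 4OHT, and 4.24 and 4.20 with Shld1, so both Shld1 arrays lay below the other 4. Foxa2 reached 5.10 on Shld1 replicate 2 but 4.16 on replicate 1, within the untreated arrays at 4.37 and 3.68. Between the agents Eomes differed by 0.33 (SE 0.15), Isl1 by -0.30 (SE 0.16) and Msx1 by -0.37 (SE 0.20).

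**Figure D4:**
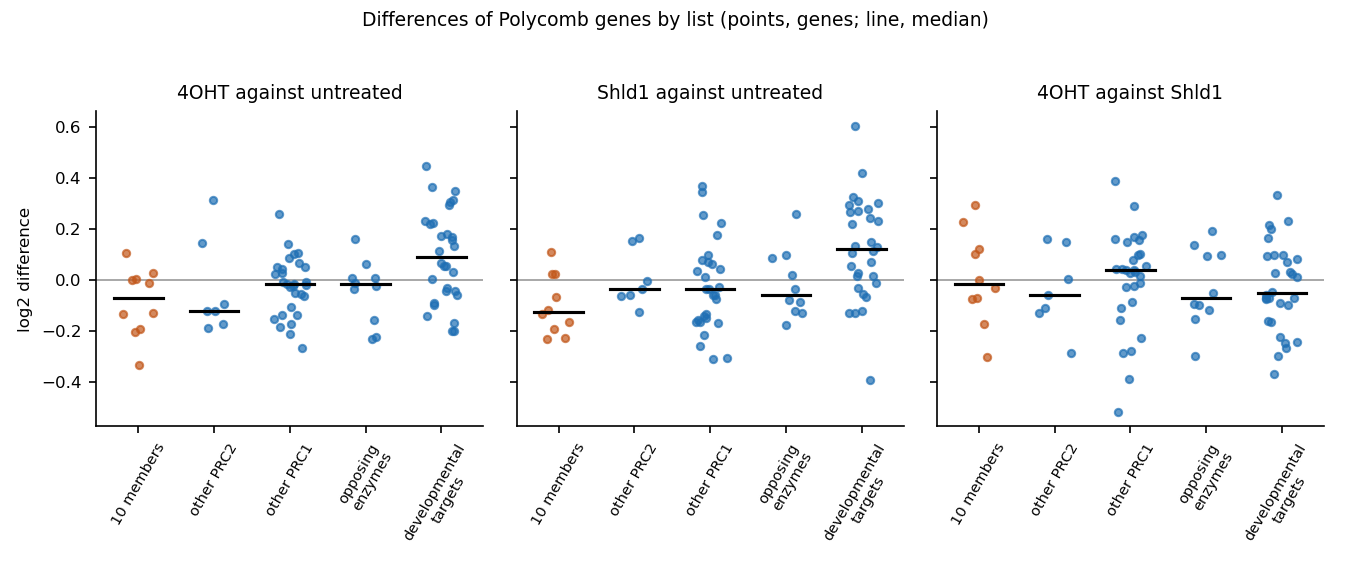
Log2 difference (vertical axis) of each gene in 3 comparisons, for the 10 Polycomb complex genes and 4 related lists; lines are list medians. The developmental targets have medians of 0.09 with 4OHT and 0.12 with Shld1, and the 10 members medians of -0.07 and -0.13.

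The genes whose signal across the 6 arrays was most like that of a catalytic subunit came from outside the Polycomb lists. For Ezh2 they were Prom1, Sec22b and Arhgap12, each with a Pearson's r of 0.994, and for Rnf2 they were Intu (0.989), Mtif2 (0.985) and Pitpna (0.985). With 6 arrays a high r is common: of the 12814 other genes above background, 357 had an r over 0.9 with Ezh2 and 230 with Rnf2, and all share the arrays and their narrower range.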

How the data were processed

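The deposited values, 1 for each of 35556 probe sets on each of 6 arrays, span the range of log2 signals and were taken as log2; no source used here states how the authors corrected background or normalized, and limma 3.14, with no role stated, is named in the submitters' processing notes. Probe sets were named through the platform annotation where it gave 1 symbol (21789 probe sets; 1621 had several and 12146 none), updated by Entrez identifier for 21698, and the brightest per gene was kept (19938 genes). Differences were fitted with limma 3.58.1 (R 4.3.3) on all 6 arrays with a mean per group, two-sided, adjusted by Benjamini-Hochberg over all genes. The median half-width of a 95% interval was 0.357, the limit that 2 arrays per group set. The fit was tested on simulated data.

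The members, lists and tests were chosen with earlier results of these data known. Named genes were the 10 members, their closest relatives in the Cbx and Pcgf families, the stem cell markers, per list and comparison the 3 genes with the largest moderated statistic, and 3 genes most like Ezh2 and Rnf2. Lists were described by counts and medians, with no set test. Alternatives covered the moderation, normalization (quantile, cyclic loess, centring on the 75th percentile), a filter on the dimmest 40% of genes, averaged probe sets, the samples fitted, array weights, a replicate block and leaving out arrays. The replicate numbers were not taken to pair the arrays.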

Additional observations from a re-analysis of the deposited data

How the results depend on the processing

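In 490 alternative values of the 30 member differences, 0 had an adjusted p under 0.05 (limma, lowest 0.46), and 30 values, of 12 differences, turned in sign. Several alternatives, such as the intensity trend, array weights and the replicate block, leave a difference unchanged and could not turn its sign. The same holds for leaving out an array of the group not compared. With quantile normalization, cyclic loess and centring on the 75th percentile, the 4OHT difference was 0.038, 0.052 and 0.045 for Jarid2 and 0.049, 0.055 and 0.037 for Rnf2. The difference of Suz12 between the agents was -0.027 with quantile normalization and -0.008 with cyclic loess. With both arrays of narrower range left out, Jarid2 and Rnf2 with 4OHT were at 0.062 and 0.115, Pcgf6 with Shld1 at 0.038, and Ezh1 and Rnf2 between the agents at 0.002 and 0. With single arrays left out, the 4OHT difference ran from -0.05 to 0.105 for Suz12, -0.062 to 0.062 for Jarid2, -0.039 to 0.052 for Mtf2 and -0.132 to 0.115 for Rnf2. With Shld1 it ran from -0.051 to 0.103 for Suz12, -0.068 to 0.114 for Rnf2 and -0.168 to 0.038 for Pcgf6. Between the agents it ran from -0.366 to 0.026 for Ezh1, -0.013 to 0.218 for Ezh2, -0.075 to 0.079 for Suz12, -0.155 to 0.092 for Rnf2 and -0.172 to 0.034 for Pcgf6. Members without overlap in 4OHT against untreated were 7 with cyclic loess (37.8% of all genes), against 4 as deposited (37.7% of all genes). They were 7 with quantile normalization and 8 with centring on the 75th percentile, where the share of all genes was not computed. In Shld1 against untreated they were 9 with cyclic loess (34.6% of all genes), against 7 as deposited (32.5%). In 4OHT against Shld1 they were 7 with cyclic loess (35%), against 5 as deposited (30.5%). The cause of these shifts was not tested. Where a group was left with 1 array, that array was assumed to vary like the other groups.

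Over all genes, 1 gene passed in 4OHT against Shld1 with an intensity trend in the moderation, against 0 without the trend. With the replicate number as a block (replicate block), 0 genes passed in each comparison. Deviations of same-numbered arrays correlated at 0.05, -0.079 and -0.194 across genes, the last between 4OHT and Shld1, and a crossed pairing of these, chosen after seeing the data, gave 7 calls in 4OHT against Shld1.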
